A study of Homo sapiens with 12 samples.

Results

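The 42 human genes described here encode proteins of the G2 phase and of mitosis: the kinases and cyclins that start division, the spindle and its motors, the spindle checkpoint, the kinetochore, and the machinery of anaphase and cell separation. They were chosen by name and role, and each was read from the probe sets whose platform annotation gives its symbol alone. Where a gene had several such sets, the one with the highest mean over the 12 arrays was used. All 42 were measured, by 82 probe sets, among 19775 genes tested. The cells were TC71 and TC32, established Ewing sarcoma lines, in which the fusion protein EWSR1-FLI1 acts as an aberrant transcription factor. They received mithramycin at 100 nM, a drug known to bind GC-rich DNA and to interfere with Sp-family factors, or the control solvent, and RNA was taken at 6 h. The 4 groups were TC71 with mithramycin, TC71 control, TC32 with mithramycin and TC32 control, with 3 biological replicates and 1 array each. The study has 1 dose, 1 time and 2 lines, and no measure of cell number or cell cycle phase was used here.

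As background, transcripts of this kind are low in G1 and rise through S phase to a peak in G2 and mitosis. In G1 the DREAM complex, which holds the MuvB core and a p107 or p130 pocket protein, represses them, largely through a promoter sequence called the cell cycle genes homology region (CHR). Later the MuvB core works with B-MYB and FOXM1 as an activator, and the factor NF-Y binds CCAAT boxes of the same promoters. In a bulk sample, fewer cells in G2 or mitosis and less RNA per such cell cannot be told apart.

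Promoter windows from RefSeq (GRCh38.p14), from 250 bases before to 50 bases after the annotated start, were found for 35 of the 42 members. FOXM1, AURKA, TPX2, BUB3, TTK, BIRC5 and UBE2C were not among them. The windows below are those of the 3 matched members with the lowest and the 3 with the highest effect of mithramycin over both lines, printed because members with such promoters moved in opposite directions. Capitals mark exact matches, on either strand, to the CHR element TTTGAA, the CCAAT box CCAAT, and the GC box GGGCGG, the kind of site that Sp factors bind. KIF11 (chr10:92592880-92593179, plus strand), BUB1B (chr15:40160819-40161118, plus strand) and CENPE (chr4:103198294-103198593, minus strand) were the lowest. KIF20A (chr5:138178862-138179161, plus strand), PTTG1 (chr5:160421605-160421904, plus strand) and NUF2 (chr1:163321704-163322003, plus strand) were the highest.
KIF11: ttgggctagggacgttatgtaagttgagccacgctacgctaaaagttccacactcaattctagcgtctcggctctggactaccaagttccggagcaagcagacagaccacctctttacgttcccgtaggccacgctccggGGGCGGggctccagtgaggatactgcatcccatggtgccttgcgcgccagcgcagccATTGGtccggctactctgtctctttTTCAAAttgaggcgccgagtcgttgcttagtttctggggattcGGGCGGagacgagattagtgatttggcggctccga
BUB1B: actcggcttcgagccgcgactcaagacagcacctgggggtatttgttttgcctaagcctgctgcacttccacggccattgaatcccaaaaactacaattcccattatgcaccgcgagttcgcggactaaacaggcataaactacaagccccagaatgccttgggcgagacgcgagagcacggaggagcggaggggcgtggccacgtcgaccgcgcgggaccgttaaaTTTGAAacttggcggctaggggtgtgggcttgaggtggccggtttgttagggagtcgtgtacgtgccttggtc
CENPE: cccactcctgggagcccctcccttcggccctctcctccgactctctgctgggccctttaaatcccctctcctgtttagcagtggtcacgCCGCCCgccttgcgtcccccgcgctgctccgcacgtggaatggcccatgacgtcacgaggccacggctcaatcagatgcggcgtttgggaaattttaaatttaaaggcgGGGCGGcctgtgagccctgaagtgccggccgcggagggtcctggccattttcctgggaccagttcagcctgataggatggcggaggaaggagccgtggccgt
KIF20A: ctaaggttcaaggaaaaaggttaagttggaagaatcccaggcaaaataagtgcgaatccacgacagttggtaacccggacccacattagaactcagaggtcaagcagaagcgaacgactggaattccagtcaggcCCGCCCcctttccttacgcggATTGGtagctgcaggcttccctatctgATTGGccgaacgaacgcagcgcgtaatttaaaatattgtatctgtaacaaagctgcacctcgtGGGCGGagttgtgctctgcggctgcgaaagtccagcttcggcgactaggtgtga
PTTG1: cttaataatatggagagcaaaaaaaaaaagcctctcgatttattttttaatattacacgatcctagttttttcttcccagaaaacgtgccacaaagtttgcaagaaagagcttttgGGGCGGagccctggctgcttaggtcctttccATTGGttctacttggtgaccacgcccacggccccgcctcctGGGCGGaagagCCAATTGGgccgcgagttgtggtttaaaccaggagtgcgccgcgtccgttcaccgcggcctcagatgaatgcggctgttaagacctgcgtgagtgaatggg
NUF2: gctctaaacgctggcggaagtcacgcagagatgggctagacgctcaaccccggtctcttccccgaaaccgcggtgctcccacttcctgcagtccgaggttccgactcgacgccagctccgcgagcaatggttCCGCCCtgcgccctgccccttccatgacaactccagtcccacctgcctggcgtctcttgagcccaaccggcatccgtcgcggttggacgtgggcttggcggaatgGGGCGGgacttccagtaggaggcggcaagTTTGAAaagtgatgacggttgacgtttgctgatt

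In these 6 windows, the CHR letters occurred once each in KIF11, BUB1B and NUF2 and not in CENPE, KIF20A or PTTG1. CCAAT matches numbered 1 in KIF11, 2 in KIF20A and 3 in PTTG1, where the run CCAATTGG reads as a match on both strands. BUB1B had 0 matches to the GC box, and the windows of the other five genes had 2 each. Over the 35 members, the CHR letters were in 25 windows (71.4%), against 4212 of 27305 promoters of all genes (15.4%) and 10.1% of those of genes whose mean array value was 6 or more. CCAAT was in 26 member windows (74.3%), against 35.7% of all promoters, and the GC box in 28 (80.0%), against 44.6% of all promoters and 72.4% of those of genes whose mean was 6 or more. Among the 22 matched members that fell over both lines, 18 held the CHR letters (81.8%) and 18 the GC box (81.8%). Among the 4 that rose, 2 held the CHR letters and 4 the GC box. Of the 9 that were not called, 5 held the CHR letters and 6 the GC box. GC content of the member windows had a median of 61.3% (range 47.7 to 81.3%), against 58.3% for all promoters and 65.7% for genes whose mean was 6 or more. Across the 35 members, GC content and the effect over both lines had a Pearson correlation of 0.06 and a Spearman correlation of 0.06, with genes that share the same arrays as the points. A match is a description of letters in the window, not an occupied site.

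Values are log2 array values after robust multi-array averaging (RMA), which brings the distributions of the arrays closer, so changes are relative to the other genes of the array. They compare 1 gene between groups and not 1 gene with another. Effects are mithramycin minus control, given with the standard error of a linear model over all 12 arrays (n = 3 arrays per group). A gene is said to have risen or fallen where limma's Benjamini-Hochberg adjusted p over all genes was under 0.05. Array values are listed in the order of replicates 1, 2 and 3, which have no order in time.

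Arrays of the same group correlated at 0.9948 to 0.9976 over all probe sets, and array medians lay between 4.38 and 4.47. The spread of the arrays was not the same. Their interquartile range was 3.214 to 3.322 in TC71 with mithramycin, against 3.384 to 3.418 in TC71 controls. In TC32 it was 3.071 to 3.204 with mithramycin, against 3.295 to 3.349 in controls. The part of this spread in the effects was not tested beyond a repeated quantile normalization. All 42 members had a mean of 6 or more, with means between 6.17 and 11.47, and 5.88 was their lowest value on any array. The 7 measured Ewing sarcoma markers were all above the array median in every group, with array means of 8.35 to 8.42 in TC71 with mithramycin, 8.81 to 8.84 in TC71 controls, 9.70 to 9.72 in TC32 with mithramycin and 10.13 to 10.19 in TC32 controls. Of 7 fibroblast markers, 6 were above the array median in TC71 with mithramycin, 5 in TC71 controls and 4 in each TC32 group. In TC71, 3 of the 7 rose (42.9%), and in TC32, 2 rose (28.6%), against 19.4% and 25.6% of all genes. Array means of the 7 were 6.39 to 6.49 in TC71 with mithramycin, against 6.04 to 6.18 in TC71 controls. In TC32 these means were 5.81 to 5.90 with mithramycin, against 5.74 to 5.84 in controls. Of the 5 endothelial markers, 0 were above the array median in TC71 and 1 in TC32, as were 1 and 2 of 6 blood cell markers and 2 and 2 of 5 epithelial markers. The 3′ minus 5′ signal of beta-actin, a sign of RNA quality, averaged 0.881 ± 0.101 in TC71 with mithramycin, against 1.454 ± 0.483 in TC71 controls (SD, n = 3 each), where replicate 1 had the highest value of the 12 arrays. In TC32 it averaged 0.603 ± 0.084 with mithramycin, against 0.713 ± 0.035 in controls. The part of these markers and of RNA quality in the results was not tested beyond the beta-actin covariate given in the closing section.

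With mithramycin, more members fell than rose in each line. In TC71, 16 of the 42 fell (38.1%), 4 rose (9.52%) and 22 were not called, against 16.1% of all genes tested that fell and 19.4% that rose. In TC32, 26 fell (61.9%), 3 rose (7.14%) and 13 were not called, against 19.4% and 25.6% of all genes. Genes whose mean was 6 or more were called more often, with 27.8% lower and 27.3% higher in TC71, and 33.4% lower and 31.1% higher in TC32. The median effect of the members was -0.094 in TC71, where the median of all genes was 0.067, and -0.235 in TC32, where it was 0.083. Most changes were small: 0 members passed a 2-fold fall in TC71 and 1, KIF11, did in TC32, against 2.49% and 3.39% of all genes. Centred on housekeeping genes, which moved the median effect of all genes in TC71 to -0.061, the counts were 25 lower and 1 higher in TC71 (23.4% and 7.91% of all genes) and 31 lower and 1 higher in TC32 (23.8% and 13.9% of all genes). Centred on the hybridization controls, which moved that median in TC71 to 0.151 and in TC32 to -0.07, they were 5 lower and 4 higher in TC71 (10.8% and 22.4% of all genes) and 29 lower and 0 higher in TC32 (22.8% and 5.85% of all genes). The 5 that fell in TC71 under that scaling were AURKA, TPX2, BUB1B, CENPE and KIF11. Relative to all genes, the members' median was -0.160 in TC71 and -0.318 in TC32, values that no centring can move, since it shifts all genes of an array alike. Other settings did move them. In TC71 and TC32 they were -0.2 and -0.238 without probe sets whose suffix is _x_at or _s_at. With the mean of all probe sets they were -0.147 and -0.235, and after quantile normalization was run again -0.169 and -0.269. Against genes whose mean was 6 or more they were -0.122 and -0.248.

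**Figure D1:**
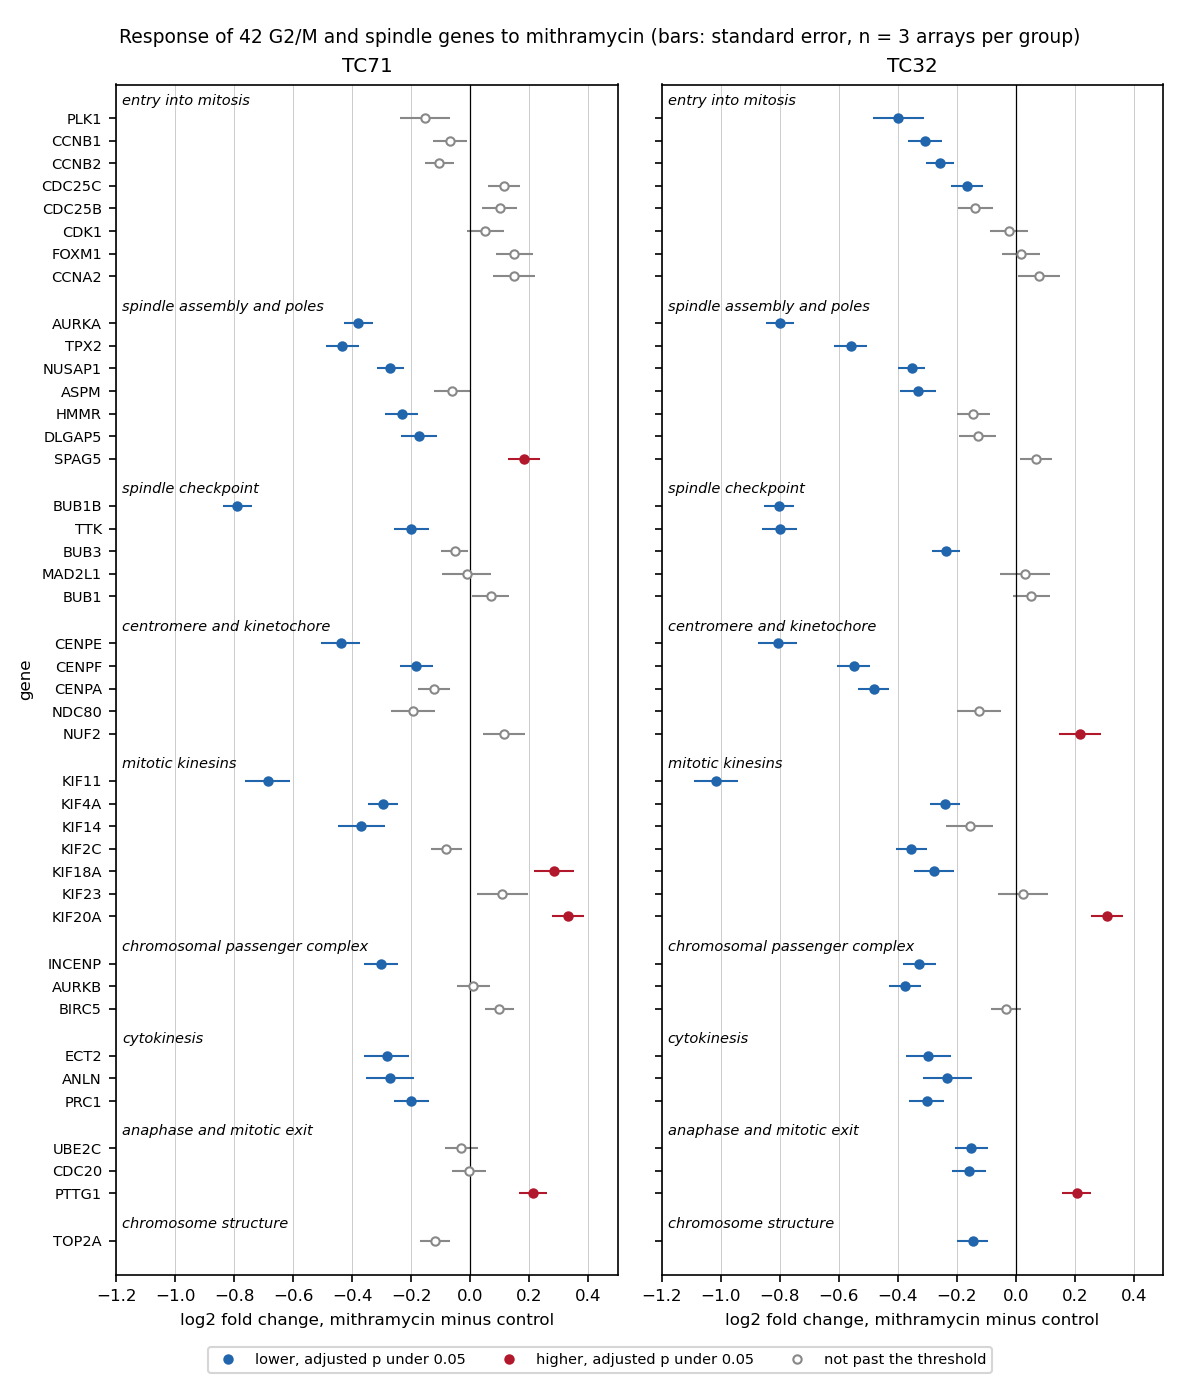
The plot shows the log2 fold change of each of the 42 members, mithramycin minus control, in TC71 on the left and in TC32 on the right, with the standard error as a bar and the genes grouped by role. Filled blue points (lower) and red points (higher) passed an adjusted p of 0.05, which holds for 16 and 4 genes in TC71 and for 26 and 3 in TC32, and open grey points did not.

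Counts of the role groups, of at most 8 genes each, stand against 16.1% of all genes lower and 19.4% higher in TC71. In TC32 these shares were 19.4% and 25.6%. Of the 8 genes of entry into mitosis, 0 fell in TC71 and 4 fell in TC32, and 0 rose in either. PLK1, the Polo-like kinase that helps to activate the mitotic cyclin-dependent kinase and to build the spindle, was the lowest of the group. PLK1 read 6.79, 6.55 and 6.71 on the TC71 mithramycin arrays, against 6.86, 6.78 and 6.86 on the TC71 control arrays. In TC32, PLK1 read 6.81, 6.49 and 6.52 with mithramycin, against 7.0, 6.99 and 7.02 in controls. The groups overlapped in TC71 and were apart in TC32. The effect was -0.15 ± 0.085 (adjusted p = 0.189) in TC71, and in TC32 PLK1 fell by 0.398 ± 0.085 (adjusted p = 0.0023). Cyclin B1 (CCNB1) and cyclin B2 (CCNB2) are the partners of CDK1 at mitotic entry. Their effects in TC71 were -0.069 ± 0.058 (adjusted p = 0.389) and -0.105 ± 0.048 (adjusted p = 0.115), and both fell in TC32, with effects of -0.31 ± 0.058 (adjusted p = 0.000959) and -0.26 ± 0.048 (adjusted p = 0.000995). A dimmer CCNB1 set had effects of -0.208 in TC71 and -0.594 in TC32. A CCNB2 set with a mean value of 2.75 had effects of 0.262 in TC71 and 0.28 in TC32, opposite to the brightest set.

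CDC25C, a phosphatase that removes inhibitory phosphates from CDK1, had values on the TC71 arrays of 7.55, 7.52 and 7.55 with mithramycin, against 7.42, 7.47 and 7.39 in controls. In TC32, CDC25C read 7.23, 7.32 and 7.16 with mithramycin, against 7.36, 7.43 and 7.42 in controls. Its mithramycin arrays lay above the controls in TC71 and below them in TC32, with effects of 0.11 ± 0.054 (adjusted p = 0.133) and -0.17 ± 0.054 (adjusted p = 0.0269). The call in TC32 was lost without TC32 control replicate 2 or 3 or TC32 mithramycin replicate 1 or 3 (effects -0.161 to -0.128, adjusted p up to 0.112). Leaving out probe sets with the suffix _x_at or _s_at, which can match several transcripts, left CDC25C a set with a mean of 3.66. Its effect in TC32 was then 0.001. Cyclin A2 (CCNA2), which acts from S phase to early mitosis, had the highest effect of the group over both lines. CCNA2 read 10.01, 10.04 and 10.03 on the TC71 mithramycin arrays, against 9.83, 10.0 and 9.81 on the controls. In TC32, CCNA2 read 9.51, 9.68 and 9.43 with mithramycin, against 9.44, 9.49 and 9.45 in controls. The groups were apart in TC71 and overlapped in TC32, and neither effect passed the test (0.15 ± 0.071 (adjusted p = 0.129) and 0.079 ± 0.071 (adjusted p = 0.392)), although without TC71 control replicate 2 the TC71 effect was 0.209 (adjusted p = 0.0494). A CCNA2 set with a mean of 8.86 had effects of 0.069 in TC71 and -0.212 in TC32 (adjusted p over all probe sets of 0.505 and 0.0303), so the sets went opposite ways in TC32. CDK1 itself had effects of 0.051 ± 0.064 (adjusted p = 0.576) in TC71 and -0.023 ± 0.064 (adjusted p = 0.793) in TC32. FOXM1, the transcription factor named above, had effects of 0.15 ± 0.064 (adjusted p = 0.0938) and 0.017 ± 0.064 (adjusted p = 0.85), and the phosphatase CDC25B had 0.099 ± 0.059 (adjusted p = 0.22) and -0.14 ± 0.059 (adjusted p = 0.0772), in TC71 and TC32 in that order. Without TC32 mithramycin replicate 1, the CDC25B effect in TC32 was -0.184 (adjusted p = 0.0291).

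Of the 7 genes of spindle assembly and spindle poles, 5 fell and 1 rose in TC71, and 4 fell and 0 rose in TC32. AURKA, the kinase of centrosomes and spindle poles, read 9.96, 9.87 and 9.92 on the TC71 mithramycin arrays, against 10.28, 10.3 and 10.31 on the controls. In TC32, AURKA read 9.59, 9.59 and 9.61 with mithramycin, against 10.36, 10.44 and 10.39 in controls. The groups were well apart in both lines. AURKA fell in both lines, with effects of -0.38 ± 0.048 (adjusted p = 6.56e-05) in TC71 and -0.8 ± 0.048 (adjusted p = 9.1e-08) in TC32. Without sets ending in _x_at or _s_at, which left AURKA a set with a mean of 4.54, the effect in TC71 was -0.192 (adjusted p = 0.402) and the fall was not called. An AURKA set ending in _s_at, with a mean of 9.42, had effects of -0.314 in TC71 and -0.732 in TC32 (adjusted p over all probe sets of 0.00281 and 2.01e-06). TPX2, which activates AURKA on spindle microtubules, fell in both lines, with effects of -0.43 ± 0.055 (adjusted p = 6.16e-05) in TC71 and -0.56 ± 0.055 (adjusted p = 5.17e-06) in TC32. NUSAP1, a microtubule-binding protein of the spindle, also fell in both lines, with effects of -0.27 ± 0.046 (adjusted p = 0.000595) in TC71 and -0.35 ± 0.046 (adjusted p = 5.83e-05) in TC32. ASPM, which acts at spindle poles, had an effect of -0.062 ± 0.061 (adjusted p = 0.467) in TC71 and fell by 0.33 ± 0.061 (adjusted p = 0.000825) in TC32. That fall was not called with the mean of all sets (-0.158, adjusted p = 0.0656) or without _x_at and _s_at sets (-0.137, adjusted p = 0.303), and ASPM sets with means of 8.34 and 8.07 had effects of -0.137 and -0.006 in TC32.

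HMMR, a spindle pole protein, and DLGAP5, which binds and stabilises spindle microtubules, fell in TC71, with effects of -0.23 ± 0.055 (adjusted p = 0.00575) and -0.175 ± 0.062 (adjusted p = 0.0449). Their effects in TC32 were -0.14 ± 0.055 (adjusted p = 0.0509) and -0.13 ± 0.062 (adjusted p = 0.108). The DLGAP5 call in TC71 was lost in 9 of 12 fits that each left out 1 array, all but those without TC71 control replicate 1 or TC32 mithramycin replicate 1 or 2 (effects -0.192 to -0.128, adjusted p up to 0.171), and HMMR was called in TC32 without TC32 control replicate 1 (-0.176, adjusted p = 0.0375). SPAG5, known as astrin, a spindle and kinetochore protein, was the highest of the group. SPAG5 read 8.5, 8.36 and 8.51 on the TC71 mithramycin arrays, against 8.29, 8.23 and 8.31 on the controls. In TC32, SPAG5 read 9.23, 9.16 and 9.18 with mithramycin, against 9.12, 9.1 and 9.14 in controls. The mithramycin arrays lay above the controls in both lines, and SPAG5 rose in TC71 by 0.18 ± 0.055 (adjusted p = 0.0231), with an effect of 0.069 ± 0.055 (adjusted p = 0.338) in TC32. Its rise was not called without TC71 control replicate 2 or TC71 mithramycin replicate 1 or 3 (effects 0.154 to 0.16, adjusted p up to 0.0945), nor when centred on housekeeping genes (0.054, adjusted p = 0.533).

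Among 5 genes of the spindle checkpoint, which holds anaphase until all kinetochores are attached, 2 fell in TC71 and 3 in TC32, and 0 rose. BUB1B encodes BUBR1, a part of the mitotic checkpoint complex that inhibits the anaphase promoting complex. BUB1B read 10.09, 10.11 and 10.1 on the TC71 mithramycin arrays, against 10.87, 10.91 and 10.89 on the controls. In TC32, BUB1B read 10.0, 10.11 and 10.05 with mithramycin, against 10.8, 10.9 and 10.87 in controls. Replicates lay close together and the groups were far apart. BUB1B fell in both lines, with effects of -0.79 ± 0.05 (adjusted p = 1.89e-07) in TC71 and -0.803 ± 0.05 (adjusted p = 1.14e-07) in TC32, and the difference of the effects was 0.013 ± 0.071 (adjusted p = 0.948).

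TTK, the checkpoint kinase also called MPS1, read 8.7, 8.73 and 8.61 on the TC71 mithramycin arrays, against 8.93, 8.88 and 8.83 on the controls. In TC32, TTK read 8.25, 8.21 and 8.19 with mithramycin, against 8.96, 9.1 and 8.99 in controls. The groups were apart in each line, and the gap was wider in TC32. TTK fell in both lines, with effects of -0.2 ± 0.058 (adjusted p = 0.0178) in TC71 and -0.801 ± 0.058 (adjusted p = 3.8e-07) in TC32. Its call in TC71 was lost without TC71 control replicate 1 (-0.173, adjusted p = 0.0659) or TC71 mithramycin replicate 3 (-0.164, adjusted p = 0.0808). BUB3, the kinetochore anchor of BUB1 and BUBR1, had an effect of -0.054 ± 0.047 (adjusted p = 0.419) in TC71 and fell by 0.24 ± 0.047 (adjusted p = 0.00151) in TC32. Without _x_at and _s_at sets, which left BUB3 a set with a mean of 4.46, the fall was not called (0.129, adjusted p = 0.448). BUB3 sets with means of 10.78, 9.6 and 9.57 had effects of -0.211, -0.285 and -0.194 in TC32 (adjusted p over all probe sets of 0.00892, 0.00206 and 0.0226). In TC71 the effects of these sets were -0.172, -0.097 and -0.036 (adjusted p over all probe sets of 0.0317, 0.246 and 0.703). With the mean of all its sets, BUB3 was called lower in TC71 (-0.124, adjusted p = 0.0438). BUB1, the kinase that recruits checkpoint proteins, read 9.62, 9.6 and 9.56 on the TC71 mithramycin arrays, against 9.5, 9.59 and 9.49 on the controls. In TC32, BUB1 read 9.03, 9.23 and 9.05 with mithramycin, against 9.04, 9.12 and 9.01 in controls. The groups overlapped in both lines, with effects of 0.068 ± 0.063 (adjusted p = 0.447) in TC71 and 0.053 ± 0.063 (adjusted p = 0.526) in TC32. MAD2L1, which encodes the checkpoint protein MAD2, had effects of -0.013 ± 0.084 (adjusted p = 0.922) in TC71 and 0.031 ± 0.084 (adjusted p = 0.791) in TC32 by its brightest set. A dimmer MAD2L1 set, with a mean of 6.88, had effects of 0.534 in TC71 and 0.953 in TC32, and another, with a mean of 10.17, had -0.101 and -0.178.

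Of the 5 centromere and kinetochore genes, 2 fell and 0 rose in TC71, and 3 fell and 1 rose in TC32. CENPE, a kinetochore motor that brings chromosomes to the spindle equator, was the lowest. CENPE read 8.83, 8.79 and 8.75 on the TC71 mithramycin arrays, against 9.15, 9.26 and 9.28 on the controls. In TC32, CENPE read 7.93, 7.75 and 7.78 with mithramycin, against 8.65, 8.53 and 8.69 in controls. Neither line showed any overlap. CENPE fell in both lines, with effects of -0.44 ± 0.067 (adjusted p = 0.000254) in TC71 and -0.81 ± 0.067 (adjusted p = 1.18e-06) in TC32. CENPF, a large protein of the outer kinetochore, read 9.09, 9.06 and 9.03 on the TC71 mithramycin arrays, against 9.15, 9.26 and 9.31 on the controls. In TC32, CENPF read 9.68, 9.57 and 9.63 with mithramycin, against 10.16, 10.2 and 10.17 in controls. In TC71 the highest mithramycin array was just below the lowest control, and in TC32 the gap was wide. CENPF fell in both lines, with effects of -0.18 ± 0.056 (adjusted p = 0.0223) in TC71 and -0.55 ± 0.056 (adjusted p = 6.8e-06) in TC32. The TC71 call was lost without TC71 control replicate 2 or 3 or TC71 mithramycin replicate 2 or 3 (effects -0.183 to -0.148, adjusted p up to 0.096). Its dimmer sets had lower effects, -0.726 in TC71 and -1.096 in TC32 for a set with a mean of 7.18, and -0.741 and -2.071 for a set with a mean of 3.48.

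CENPA, the histone H3 variant that marks centromeres, read 8.7, 8.65 and 8.71 on the TC71 mithramycin arrays, against 8.81, 8.77 and 8.86 on the controls. In TC32, CENPA read 8.14, 8.0 and 8.06 with mithramycin, against 8.52, 8.57 and 8.56 in controls. The mithramycin arrays lay below the controls in both lines. The effect was -0.12 ± 0.053 (adjusted p = 0.0925) in TC71, and in TC32 CENPA fell by 0.48 ± 0.053 (adjusted p = 1.46e-05). NDC80 and NUF2 are partners in the complex that binds microtubules at the kinetochore. NDC80 had effects of -0.19 ± 0.074 (adjusted p = 0.0593) in TC71 and -0.13 ± 0.074 (adjusted p = 0.185) in TC32, and without TC32 mithramycin replicate 2 it was called in both lines (-0.194, adjusted p = 0.00505, and -0.226, adjusted p = 0.00348). NUF2 read 9.47, 9.5 and 9.53 on the TC71 mithramycin arrays, against 9.4, 9.46 and 9.29 on the controls. In TC32, NUF2 read 9.54, 9.78 and 9.61 with mithramycin, against 9.47, 9.46 and 9.36 in controls. The mithramycin arrays lay above the controls in both lines by small margins. The effect was 0.11 ± 0.071 (adjusted p = 0.244) in TC71, and NUF2 rose by 0.22 ± 0.071 (adjusted p = 0.026) in TC32. The rise was not called without TC32 control replicate 3 (0.18, adjusted p = 0.0931) or TC32 mithramycin replicate 2 (0.146, adjusted p = 0.0868), nor when centred on housekeeping genes (0.124, adjusted p = 0.223).

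Of the 7 mitotic kinesins, motor proteins that move along or take apart microtubules, 3 fell and 2 rose in TC71 (42.9% and 28.6%). In TC32, 4 fell and 1 rose (57.1% and 14.3%). Among genes whose mean was 6 or more, 27.8% fell and 27.3% rose in TC71, and 33.4% fell and 31.1% rose in TC32. KIF11, known as Eg5, slides spindle microtubules apart to make a bipolar spindle and had the lowest effect of all 42 members in TC32. KIF11 read 8.64, 8.71 and 8.69 on the TC71 mithramycin arrays, against 9.43, 9.42 and 9.27 on the controls. In TC32, KIF11 read 8.0, 8.29 and 8.05 with mithramycin, against 9.13, 9.16 and 9.1 in controls. The groups were far apart in both lines, and TC32 mithramycin replicate 2 was higher than the other two. KIF11 fell in both lines, with effects of -0.69 ± 0.075 (adjusted p = 1.89e-05) in TC71 and -1.02 ± 0.075 (adjusted p = 4.9e-07) in TC32. KIF20A, known as MKLP2, which carries the chromosomal passenger complex to the central spindle, had the highest effect of the 42. KIF20A read 10.4, 10.34 and 10.36 on the TC71 mithramycin arrays, against 9.96, 10.08 and 10.06 on the controls. In TC32, KIF20A read 9.82, 9.8 and 9.73 with mithramycin, against 9.5, 9.42 and 9.5 in controls. All mithramycin arrays lay above all controls of their line. KIF20A rose by 0.33 ± 0.054 (adjusted p = 0.000447) in TC71 and by 0.31 ± 0.054 (adjusted p = 0.000626) in TC32, and the TC32 rise was not called when centred on the hybridization controls (0.154, adjusted p = 0.289).

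KIF18A, which limits the length of kinetochore microtubules, was the only member called in opposite directions in the lines (0.824% of all genes were). KIF18A read 7.76, 7.72 and 7.64 on the TC71 mithramycin arrays, against 7.37, 7.52 and 7.37 on the controls. In TC32, KIF18A read 7.07, 7.28 and 7.22 with mithramycin, against 7.46, 7.52 and 7.42 in controls. The mithramycin arrays lay above the controls in TC71 and below them in TC32. KIF18A rose by 0.28 ± 0.068 (adjusted p = 0.00644) in TC71 and fell by 0.28 ± 0.068 (adjusted p = 0.00587) in TC32. Centred on housekeeping genes the TC71 rise was not called (0.155, adjusted p = 0.115), and after quantile normalization was run again the TC32 fall was not called (-0.156, adjusted p = 0.0515). KIF2C, known as MCAK, which takes microtubules apart at centromeres, read 10.06, 9.98 and 10.02 on the TC71 mithramycin arrays, against 10.05, 10.15 and 10.1 on the controls. In TC32, KIF2C read 10.12, 10.05 and 10.06 with mithramycin, against 10.41, 10.4 and 10.49 in controls. The groups overlapped in TC71 and were apart in TC32. The effect was -0.082 ± 0.052 (adjusted p = 0.251) in TC71, and in TC32 KIF2C fell by 0.35 ± 0.052 (adjusted p = 0.000162).

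KIF4A, a chromosome-bound and midzone motor, fell in both lines, with effects of -0.296 ± 0.051 (adjusted p = 0.000696) in TC71 and -0.24 ± 0.051 (adjusted p = 0.00241) in TC32. KIF14, which acts in cytokinesis, fell by 0.37 ± 0.08 (adjusted p = 0.0033) in TC71, and its effect in TC32 was -0.16 ± 0.08 (adjusted p = 0.133), or -0.248 (adjusted p = 0.012) without TC32 mithramycin replicate 2. A KIF14 set with a mean of 7.94 had effects of -0.578 in TC71 and -0.381 in TC32 (adjusted p over all probe sets of 2.52e-05 and 0.000598). With the mean of its sets, KIF14 was called lower in TC32 too (-0.269, adjusted p = 0.0033). KIF23, a subunit of centralspindlin, had effects of 0.11 ± 0.086 (adjusted p = 0.365) in TC71 and 0.024 ± 0.086 (adjusted p = 0.838) in TC32. A KIF23 set with a mean of 6.25 had effects of 0.275 in TC71 and 0.161 in TC32 (adjusted p over all probe sets of 0.0274 and 0.157). With the mean of its sets, KIF23 was called higher in TC71 (0.191, adjusted p = 0.0496) and over both lines (0.142, adjusted p = 0.0283).

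**Figure D2:**
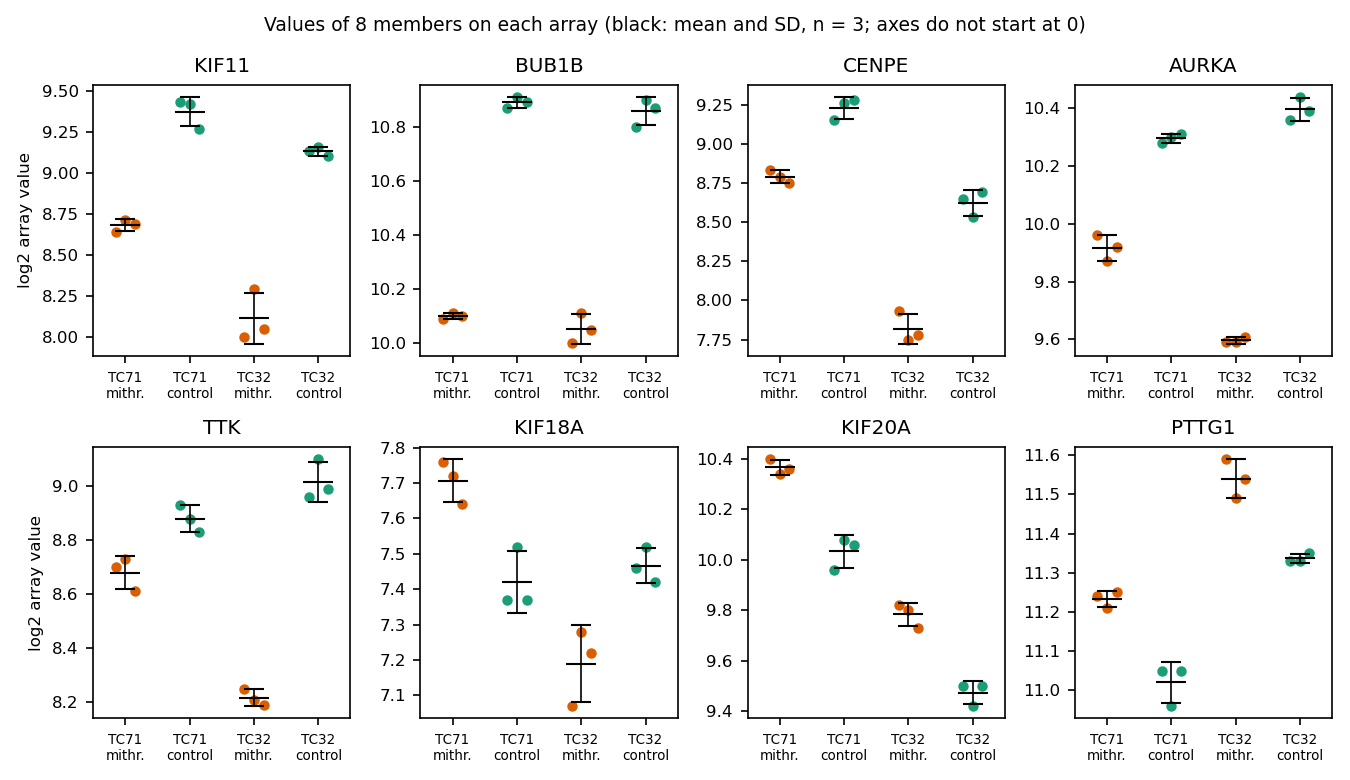
The panels show the log2 array values of 8 members on each of the 12 arrays, by group, with the mean and SD of 3 arrays in black. KIF11, BUB1B, CENPE, AURKA and TTK lie lower with mithramycin in both lines, KIF18A is higher in TC71 and lower in TC32, and KIF20A and PTTG1 are higher in both.

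The chromosomal passenger complex corrects wrong attachments and later guides cell separation. INCENP, its scaffold, fell in both lines. INCENP read 5.88, 5.95 and 6.03 on the TC71 mithramycin arrays, against 6.34, 6.2 and 6.23 on the controls. In TC32, INCENP read 6.06, 6.09 and 6.06 with mithramycin, against 6.36, 6.4 and 6.44 in controls. The groups were apart in both lines, with effects of -0.304 ± 0.057 (adjusted p = 0.00124) in TC71 and -0.33 ± 0.057 (adjusted p = 0.000578) in TC32. AURKB, its kinase, read 8.64, 8.56 and 8.66 on the TC71 mithramycin arrays, against 8.66, 8.63 and 8.54 on the controls. In TC32, AURKB read 8.65, 8.53 and 8.62 with mithramycin, against 8.97, 9.0 and 8.97 in controls. The groups overlapped in TC71 and were apart in TC32. The effect was 0.01 ± 0.055 (adjusted p = 0.913) in TC71, and in TC32 AURKB fell by 0.38 ± 0.055 (adjusted p = 0.000161). An AURKB set with a mean of 6.58 had effects of -0.03 in TC71 and -0.248 in TC32 (adjusted p over all probe sets of 0.847 and 0.0496). The difference of the effects of that set was 0.219 (adjusted p over all probe sets of 0.404). BIRC5, which encodes survivin, the subunit that ties the complex to centromeres, read 11.17, 11.13 and 11.15 on the TC71 mithramycin arrays, against 11.0, 11.07 and 11.07 on the controls. In TC32, BIRC5 read 10.24, 10.14 and 10.15 with mithramycin, against 10.17, 10.24 and 10.21 in controls. BIRC5 groups were apart in TC71 and overlapped in TC32, and neither effect passed the test (0.098 ± 0.05 (adjusted p = 0.153) and -0.034 ± 0.05 (adjusted p = 0.603)). Another BIRC5 set, with a mean of 9.03, rose by 0.573 in TC71 and by 0.567 in TC32 (adjusted p over all probe sets of 2.1e-05 and 1.7e-05), so the sets of BIRC5 disagreed.

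All 3 genes of cytokinesis fell in both lines by their brightest sets, and the calls of ECT2 and ANLN depended on that choice. ECT2, the exchange factor that activates RhoA at the division plane, read 9.42, 9.55 and 9.48 on the TC71 mithramycin arrays, against 9.77, 9.83 and 9.71 on the controls. In TC32, ECT2 read 8.71, 8.97 and 8.85 with mithramycin, against 9.17, 9.22 and 9.03 in controls. Its groups did not overlap in either line. ECT2 fell in both lines, with effects of -0.28 ± 0.077 (adjusted p = 0.0128) in TC71 and -0.297 ± 0.077 (adjusted p = 0.0079) in TC32. The TC71 call was lost without TC71 control replicate 2 (-0.252, adjusted p = 0.0525), and an ECT2 set with a mean of 6.44 had effects of 0.43 in TC71 and 0.11 in TC32. With the mean of all its sets, ECT2 was called in neither line (-0.073, adjusted p = 0.4, in TC71 and -0.117, adjusted p = 0.153, in TC32), and without _x_at and _s_at sets its TC32 call was lost (-0.163, adjusted p = 0.228). PRC1, which bundles the microtubules of the midzone, read 10.24, 10.27 and 10.26 on the TC71 mithramycin arrays, against 10.34, 10.51 and 10.52 on the controls. In TC32, PRC1 read 10.55, 10.59 and 10.46 with mithramycin, against 10.8, 10.85 and 10.85 in controls. The groups were apart in both lines, with effects of -0.201 ± 0.059 (adjusted p = 0.0195) in TC71 and -0.302 ± 0.059 (adjusted p = 0.00133) in TC32, both of them falls, of which the TC71 call was lost without TC71 control replicate 2 or 3 or TC71 mithramycin replicate 1 or 3 (effects -0.203 to -0.17, adjusted p up to 0.0801). ANLN, the anillin of the contractile ring, fell in both lines, with effects of -0.27 ± 0.082 (adjusted p = 0.0212) in TC71 and -0.23 ± 0.082 (adjusted p = 0.0363) in TC32. Its call in TC71 was lost without TC71 control replicate 1 or 2 or TC71 mithramycin replicate 3 (adjusted p up to 0.0745), and that in TC32 without any 1 of the TC32 controls or TC32 mithramycin replicate 1 or 3 (-0.253 to -0.148, adjusted p up to 0.142). With the mean of its sets the TC71 call of ANLN was lost (-0.141, adjusted p = 0.136), and without _x_at and _s_at sets both were (-0.01, adjusted p = 0.954, in TC71 and -0.191, adjusted p = 0.147, in TC32).

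Of the 3 genes of anaphase and mitotic exit, PTTG1 rose in both lines and the others fell in TC32. PTTG1 encodes securin, which holds separase inactive until anaphase. PTTG1 read 11.24, 11.21 and 11.25 on the TC71 mithramycin arrays, against 11.05, 10.96 and 11.05 on the controls. In TC32, PTTG1 read 11.59, 11.49 and 11.54 with mithramycin, against 11.33, 11.33 and 11.35 in controls. The mithramycin arrays lay above the controls in both lines. PTTG1 rose by 0.21 ± 0.049 (adjusted p = 0.0052) in TC71 and by 0.21 ± 0.049 (adjusted p = 0.00488) in TC32, and neither rise was called when centred on housekeeping genes (0.084, adjusted p = 0.262, and 0.114, adjusted p = 0.108). UBE2C, the ubiquitin-conjugating enzyme of the anaphase promoting complex, read 11.38, 11.35 and 11.39 on the TC71 mithramycin arrays, against 11.44, 11.4 and 11.39 on the controls. In TC32, UBE2C read 11.46, 11.27 and 11.37 with mithramycin, against 11.5, 11.49 and 11.55 in controls. The groups touched in TC71 and were apart by a small margin in TC32. The effect was -0.031 ± 0.055 (adjusted p = 0.701) in TC71, and in TC32 UBE2C fell by 0.15 ± 0.055 (adjusted p = 0.0417). That call was lost in 11 of 12 fits that each left out 1 array, all but the one without TC32 mithramycin replicate 1 (-0.163 to -0.105, adjusted p up to 0.127). CDC20, an activator of the same complex, had an effect of -0.004 ± 0.057 (adjusted p = 0.97) in TC71 and fell by 0.16 ± 0.057 (adjusted p = 0.0403) in TC32. Its TC32 call was lost in 9 of the 12 fits, all but those without TC32 control replicate 1, TC32 mithramycin replicate 1 or TC71 control replicate 2 (-0.165 to -0.111, adjusted p up to 0.126).

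TOP2A, the topoisomerase that untangles sister chromatids, read 10.38, 10.42 and 10.35 on the TC71 mithramycin arrays, against 10.48, 10.54 and 10.49 on the controls. In TC32, TOP2A read 11.03, 11.14 and 11.06 with mithramycin, against 11.27, 11.22 and 11.17 in controls. The mithramycin arrays lay below the controls in both lines, by small margins. The effect was -0.12 ± 0.052 (adjusted p = 0.0965) in TC71, and in TC32 TOP2A fell by 0.15 ± 0.052 (adjusted p = 0.0393). The TC32 call was lost without TC32 control replicate 1 or 2, TC32 mithramycin replicate 1 or 3, TC71 control replicate 3, or TC71 mithramycin replicate 1 or 3 (-0.147 to -0.12, adjusted p up to 0.123). A TOP2A set with a mean of 10.46 had effects of -0.197 in TC71 and -0.113 in TC32 (adjusted p over all probe sets of 0.0342 and 0.187).

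Across the lines, 13 members fell in both (12.7% of all genes did), 2 rose in both, KIF20A and PTTG1 (13.1% of all genes), and 9 were called in neither (46.1% of all genes). Another 3 were called lower in TC71 alone (3.28% of all genes) and 12 in TC32 alone (5.99% of all genes), which does not show a difference between the lines by itself. Effects had the same sign in both lines for 35 of 42 members (78.2% of all genes). The lines share no arrays, and over the 42 genes their effects had a Pearson correlation of 0.792 and a Spearman correlation of 0.72, against 0.756 and 0.676 over all 19775 genes and a Pearson correlation of 0.835 over genes whose mean was 6 or more. On the mean of both effects, 26 members fell (20.9% of all genes, 35.1% of those whose mean was 6 or more) and 4 rose (32.9% and 36.5%). Those that rose were KIF20A, PTTG1, NUF2 and SPAG5. In TC71 the mithramycin arrays lay wholly below the controls for 21 members (20.6% of all genes) and wholly above them for 9 (30.8% of all genes). In TC32 they lay below for 28 (20.8% of all genes) and above for 4 (30.0% of all genes), and 18 members were below in both lines (14.6% of all genes).

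The difference of the responses, TC71 effect minus TC32 effect, was tested for every gene. It was called for 9 of the 42 members, all with the TC71 effect higher (21.4%, against 6.27% of all genes tested and 10.2% of those whose mean was 6 or more), and for 0 members with the TC71 effect lower (3.72% and 4.72%). At an unadjusted p under 0.05, 15 members differed in either direction (22.3% of all genes). The 9 were TTK (0.601 ± 0.082 (adjusted p = 0.00058)), KIF18A (0.56 ± 0.096 (adjusted p = 0.00297)), AURKA (0.42 ± 0.068 (adjusted p = 0.00207)), AURKB (0.385 ± 0.078 (adjusted p = 0.00817)), CENPE (0.37 ± 0.094 (adjusted p = 0.0287)), CENPF (0.37 ± 0.079 (adjusted p = 0.0112)), CENPA (0.36 ± 0.075 (adjusted p = 0.01)), CDC25C (0.28 ± 0.077 (adjusted p = 0.041)) and KIF2C (0.27 ± 0.074 (adjusted p = 0.0379)). They include 3 of the 5 centromere and kinetochore genes and both Aurora kinases. KIF11, BUB1B, KIF20A and PTTG1 were not called for the difference, with values of 0.33 ± 0.107 (adjusted p = 0.08), 0.013 ± 0.071 (adjusted p = 0.948), 0.025 ± 0.077 (adjusted p = 0.907) and 0.006 ± 0.07 (adjusted p = 0.979). The call was lost for CDC25C and KIF2C in 10 of 12 fits that each left out 1 array. For CDC25C the exceptions were the fits without TC32 control replicate 1 or TC32 mithramycin replicate 2, and for KIF2C those without TC32 mithramycin replicate 1 or TC71 control replicate 2 (adjusted p up to 0.102 and 0.0936). For CENPE the call was lost in 7, those without TC32 control replicate 1 or 3, TC32 mithramycin replicate 2 or 3, TC71 control replicate 1, or TC71 mithramycin replicate 1 or 2 (adjusted p up to 0.0719). Without _x_at and _s_at sets the difference was not called for AURKA (0.338, adjusted p = 0.45), CDC25C (-0.045, adjusted p = 0.931) or KIF2C (0.272, adjusted p = 0.0601). AURKA and CDC25C were then read from sets with means of 4.54 and 3.66, while KIF2C kept its brightest set and its effect. With the mean of all sets CDC25C was not called (0.096, adjusted p = 0.528). After quantile normalization was run again it was not called for CDC25C (0.224, adjusted p = 0.0508) or CENPE (0.279, adjusted p = 0.126), and centred on housekeeping genes not for CDC25C (0.243, adjusted p = 0.0833) or KIF2C (0.236, adjusted p = 0.0581). Without TC32 mithramycin replicate 2 the difference was called for KIF11 (0.415, adjusted p = 0.00912). Without TC32 mithramycin replicate 1 it was called for PLK1 (0.345, adjusted p = 0.0457) and CDC25B (0.282, adjusted p = 0.0493), and without TC32 control replicate 2 for ASPM (0.312, adjusted p = 0.0496).

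**Figure D3:**
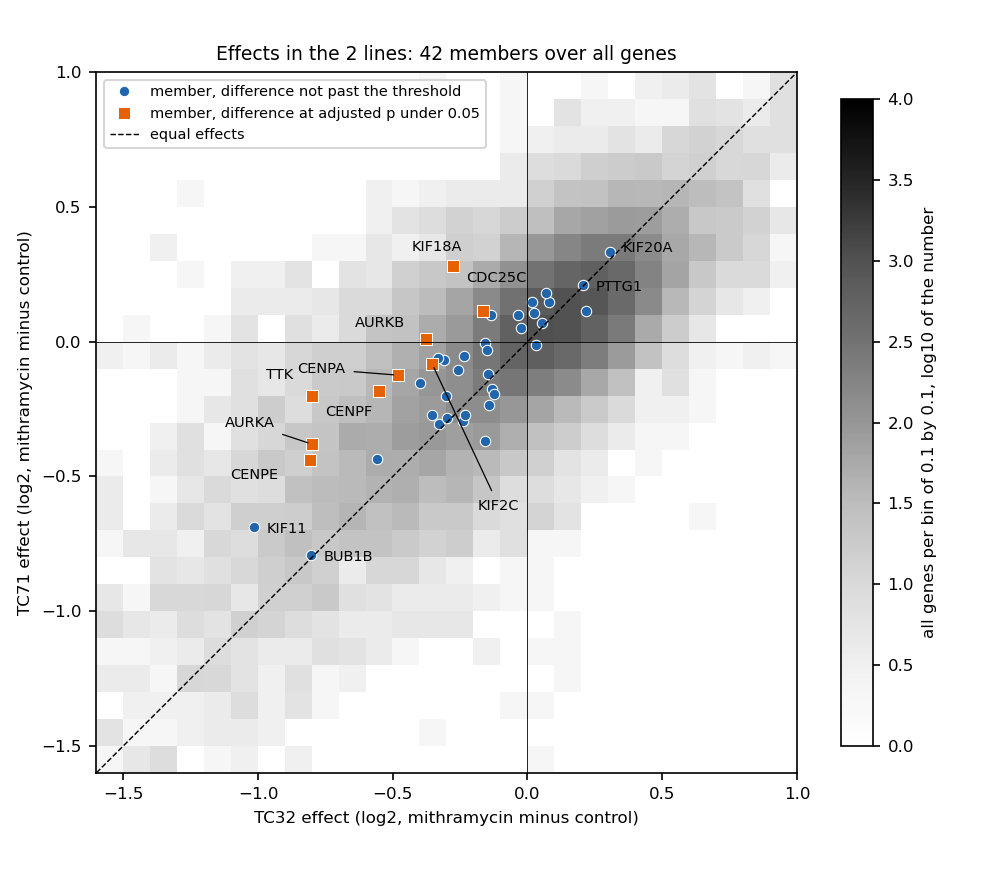
The plot sets the effect in TC71 (vertical axis, log2) against the effect in TC32 (horizontal axis, log2) for the 42 members, over grey bins that count all genes within the drawn range of -1.6 to 1. The 9 orange squares, called for the difference, all lie above the dashed line of equal effects, and 34 of the 42 members had the lower effect in TC32 (45.5% of all genes did).

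The control cultures were compared as TC71 control minus TC32 control, to show where the lines stood without the drug. Of the members, 16 were lower in TC71 (24.8% of all genes) and 12 higher (26.7% of all genes). Among genes whose mean was 6 or more, 35.5% were lower and 41.8% higher. CENPF had -0.93 ± 0.056 (adjusted p = 1.81e-08), SPAG5 -0.84 ± 0.055 (adjusted p = 4.57e-08), FOXM1 -0.76 ± 0.064 (adjusted p = 4.94e-07) and TOP2A -0.72 ± 0.052 (adjusted p = 1.19e-07), each lower in TC71. BIRC5 had 0.84 ± 0.05 (adjusted p = 1.76e-08), NDC80 0.78 ± 0.074 (adjusted p = 1.34e-06), ECT2 0.63 ± 0.077 (adjusted p = 1.52e-05) and CENPE 0.61 ± 0.067 (adjusted p = 5.61e-06), each higher in TC71. These differences were of about the size of the larger drug effects and ran in both directions. Centred on housekeeping genes, 10 members were lower and 20 higher in TC71 (14.4% and 48.3% of all genes).

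Of the 42 members, 21 had more than 1 probe set. In 13 of these, all sets had 1 sign on the mean of both lines, and 19 of the 24 dimmer sets of mean 6 or more had the sign of the brightest. BUB1, CCNB2, ECT2 and MAD2L1 each had a set called opposite in direction to the effect of the brightest set, and in BUB1 and CCNB2 that set had a mean under 6. Beside the genes named above, leaving out _x_at and _s_at sets ended the call of TOP2A in TC32 (-0.113, adjusted p = 0.181). TOP2A was then read from a set with a mean of 10.46, and its fall in TC71 was called (-0.197, adjusted p = 0.0327). The calls of DLGAP5 in TC71 (-0.175, adjusted p = 0.0622) and of UBE2C in TC32 (-0.151, adjusted p = 0.0622) were also lost. DLGAP5 and UBE2C kept their only set and its effect there, and what changed was the other genes of the test. Probe sets of 1 gene can read different transcript ends, and which end changed was not tested.

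**Figure D4:**
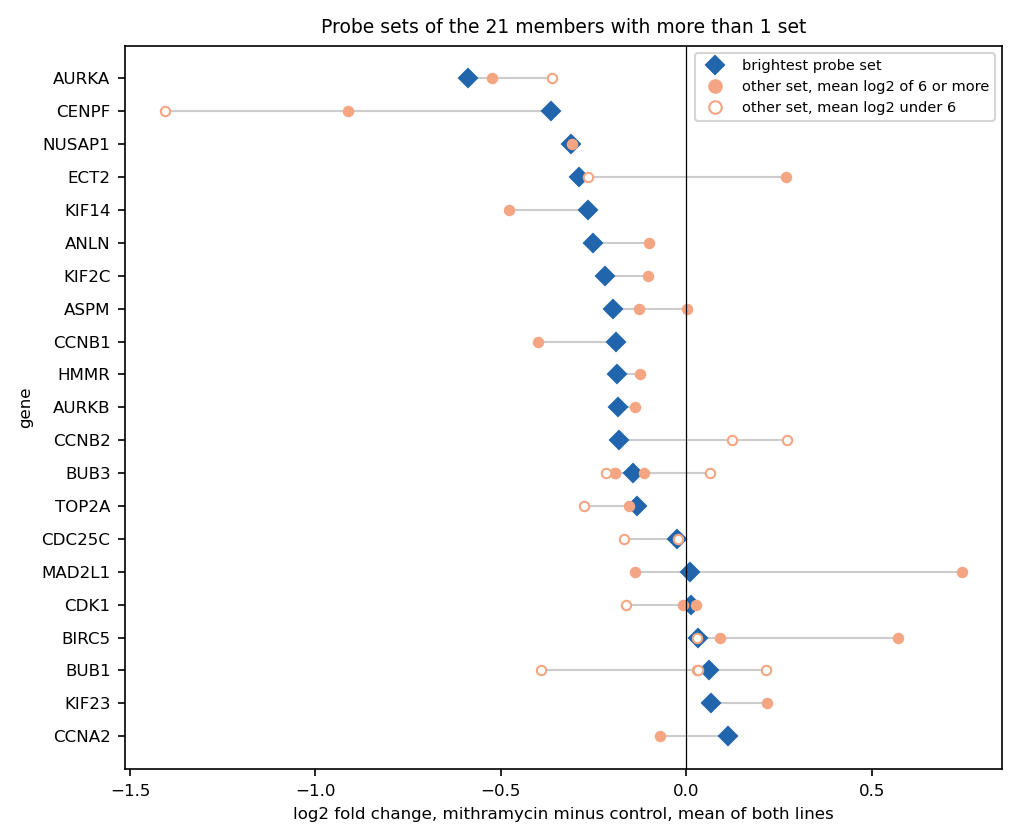
Each line holds the probe sets of 1 of the 21 members with more than 1 set, with the log2 fold change over both lines on the horizontal axis. Diamonds are the brightest sets, filled circles other sets of mean 6 or more and open circles dimmer ones. CENPF sets lie furthest below 0, at -0.366 to -1.41, and a MAD2L1 set lies furthest above, at 0.744.

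Other genes of the pathway were read from lists drawn up by role. Their counts also stand against 16.1% of all genes lower and 19.4% higher in TC71, and 19.4% and 25.6% in TC32. Of 30 further kinetochore and centromere genes, 12 fell and 2 rose in TC71, and 14 fell and 7 rose in TC32. HJURP, the chaperone that loads CENPA, fell in both lines, with effects of -0.51 ± 0.061 (adjusted p = 3.65e-05) in TC71 and -1.07 ± 0.061 (adjusted p = 5.51e-08) in TC32. MAD1L1, the partner of MAD2 at kinetochores, also fell in both lines, with effects of -1.27 ± 0.078 (adjusted p = 1.42e-07) in TC71 and -0.99 ± 0.078 (adjusted p = 7.69e-07) in TC32, from a set with a mean of 4.88. DSN1, a part of the kinetochore's MIS12 complex, rose by 0.28 ± 0.077 (adjusted p = 0.0134) and 0.395 ± 0.077 (adjusted p = 0.00132). Of 27 further kinesins and spindle genes, 14 fell and 5 rose in TC71, and 15 fell and 5 rose in TC32. CEP192, a centrosome scaffold that recruits AURKA, fell in both lines, with effects of -1.21 ± 0.064 (adjusted p = 4.48e-08) in TC71 and -1.02 ± 0.064 (adjusted p = 1.21e-07) in TC32. CLASP1, which stabilises microtubule ends, also fell in both lines, with effects of -1.32 ± 0.052 (adjusted p = 4.38e-09) in TC71 and -0.77 ± 0.052 (adjusted p = 2.15e-07) in TC32. The highest of the list was DEPDC1, which rose by 0.535 ± 0.058 (adjusted p = 1.8e-05) in TC71 and by 0.53 ± 0.058 (adjusted p = 1.37e-05) in TC32 by its brightest set, while a DEPDC1 set with a mean of 8.52 had effects of 0.139 and -0.092.

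Of 19 condensin and cohesin genes, which fold and hold chromatids, 11 fell and 4 rose in TC71, and 8 fell and 4 rose in TC32. PDS5B, a cohesin regulator, fell in both lines, with effects of -1.09 ± 0.059 (adjusted p = 5.03e-08) in TC71 and -1.02 ± 0.059 (adjusted p = 5.97e-08) in TC32. NCAPH, a condensin I subunit, also fell in both lines, with effects of -0.54 ± 0.052 (adjusted p = 5.83e-06) in TC71 and -1.22 ± 0.052 (adjusted p = 5.12e-09) in TC32. CDCA5, known as sororin, which protects cohesion, rose by 0.31 ± 0.05 (adjusted p = 0.000406) and 0.42 ± 0.05 (adjusted p = 2.89e-05). Of the 14 genes of the anaphase promoting complex list, 4 fell and 3 rose in TC71 (28.6% and 21.4%). In TC32, 4 fell and 4 rose (28.6% each). Of 26 genes of DREAM, the MuvB core and G2 control, 13 fell and 5 rose in TC71, and 14 fell and 4 rose in TC32. RBL1, which encodes the p107 pocket protein of DREAM, fell in both lines, with effects of -1.97 ± 0.161 (adjusted p = 1.54e-06) in TC71 and -1.603 ± 0.161 (adjusted p = 6.41e-06) in TC32 by its brightest set, while its other sets had effects over both lines of -0.506, -0.248 and -0.039. MYBL1, which encodes A-MYB, had an effect of 0.034 ± 0.09 (adjusted p = 0.807) in TC71 and rose by 0.75 ± 0.09 (adjusted p = 2.87e-05) in TC32.

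Without the G1/S list, these 116 further genes had 54 lower and 19 higher in TC71 (46.6% and 16.4%) and 55 lower and 24 higher in TC32 (47.4% and 20.7%). The 42 members had 38.1% lower in TC71 and 61.9% in TC32. The 32 genes of G1/S and replication, which act earlier in the cycle, had 7 lower and 6 higher in TC71 (21.9% and 18.8%). In TC32 they had 9 lower and 5 higher (28.1% and 15.6%). Their median effect was 0.028 in TC71 and -0.019 in TC32, against -0.094 and -0.235 for the members. RFC3, a subunit of the clamp loader of replication, was the lowest of them. By its brightest set its effects were -0.81 ± 0.073 (adjusted p = 3.7e-06) in TC71 and -0.97 ± 0.073 (adjusted p = 5.57e-07) in TC32. An RFC3 set with a mean of 7.17 had effects of -0.512 in TC71 and -0.973 in TC32. Another, with a mean of 5.78, had 0.004 and 0.945. CDK2, the S phase kinase, rose by 0.402 ± 0.082 (adjusted p = 0.00229) in TC71 and 0.38 ± 0.082 (adjusted p = 0.00247) in TC32.

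**Figure D5:**
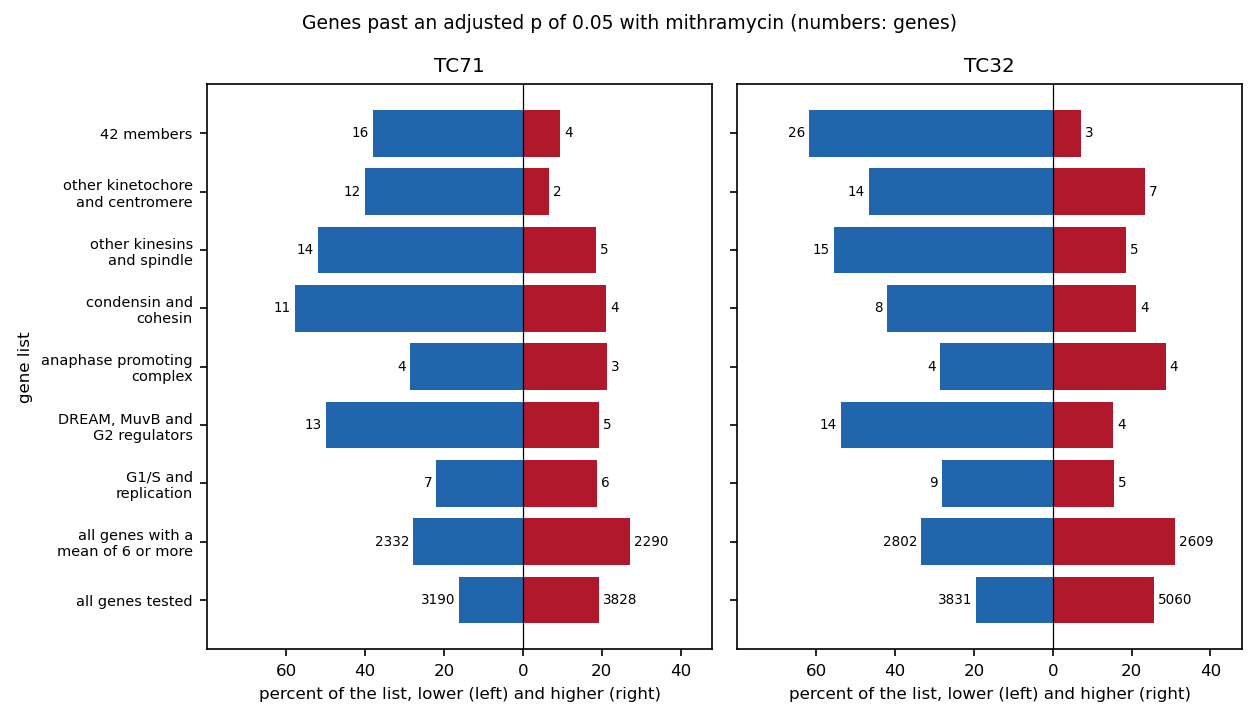
Bars give the percent of each gene list that passed an adjusted p of 0.05 with mithramycin, lower to the left in blue and higher to the right in red, in TC71 and in TC32, with the number of genes beside each bar. The 42 members had 16 lower and 4 higher genes in TC71 and 26 lower and 3 higher in TC32, and all genes tested had 16.1% lower in TC71 and 19.4% lower in TC32.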

How the data were processed

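The deposited table holds log2 values per probe set for 12 arrays, made by the authors with RMA, per the submitters' processing notes. RMA corrects background, quantile normalizes and summarizes probes, so a shift shared by most genes is largely removed. The RMA version and array design were not stated in what was used. Of 54675 probe sets, 41091 carried a single gene symbol. For 41037 of them the Entrez identifier was found in a RefSeq table, and the symbol given there was used, changed or not. A further 1801 had several symbols, 11721 were unnamed here and 62 were controls. Each of 19775 genes was read from its brightest set. All 12 arrays entered 1 group-means model in limma 3.58.1 (R 4.3.3) with empirical Bayes moderation, two-sided, with Benjamini-Hochberg adjustment over all genes of a contrast and a threshold of 0.05. Groups came from the labels, and 0 other sample columns were left unused. The fit was tested on simulated data with 200 changed genes. The number of arrays limits the precision, and batches were not tested.

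The members and lists were chosen with earlier results of these data known. Values on every array were given for the members with the lowest and highest effect over both lines in each role group and for those called for the difference or in opposite directions. The lowest and highest called genes of other lists could be named. The alternatives were other probe set rules, a minimum mean of 6, 2 centrings, repeated quantile normalization, 6-array fits, a replicate block, a beta-actin covariate and leaving out each array.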

Additional observations from a re-analysis of the deposited data

Results flagged for a closer look

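The drug response differed between the lines by a test of the difference itself (TC71 effect minus TC32 effect, limma, adjusted p under 0.05, n = 3 arrays per group) for 9 members. The largest was that of TTK, the checkpoint kinase, at 0.601 on the log2 scale. KIF18A, the kinesin that limits microtubule length, had 0.559, with a rise in TC71 and a fall in TC32. The Aurora kinases had 0.42 (AURKA, of the spindle poles) and 0.385 (AURKB, of the passenger complex). Among the centromere and kinetochore genes, CENPE had 0.368, CENPF 0.367 and CENPA 0.358. CDC25C, the phosphatase that activates CDK1, had 0.278, and KIF2C, the microtubule-depolymerizing kinesin, had 0.272. In each of these the TC32 effect was the lower. Without probe sets ending in _x_at or _s_at, which left AURKA a set with a mean of 4.54, its difference was not called (0.338, adjusted p = 0.45). An AURKA set ending in _s_at, with a mean of 9.42, had a difference of 0.419 (adjusted p over all probe sets of 0.0157). For an AURKB set with a mean of 6.58 the difference was 0.219 (adjusted p over all probe sets of 0.404). Beta-actin 3′ minus 5′ signal also differed between the TC71 groups, and with it as a covariate the difference was not called for CDC25C (0.27, adjusted p = 0.127), CENPE (0.293, adjusted p = 0.14), CENPF (0.289, adjusted p = 0.0629) and KIF2C (0.219, adjusted p = 0.167). It stayed past the threshold for the other five.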

How the results depend on the processing

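Counts are members lower or higher of 42, and the cause of each change was not tested unless stated. Shares of all genes under the centrings are given above for each line and, for housekeeping genes, between controls. For the other changed settings and contrasts below such shares are not given, so those counts do not set the members against all genes. Leaving out each of the 12 arrays gave 11 to 17 lower and 3 to 4 higher in TC71, 21 to 26 and 2 to 3 in TC32, 25 to 26 and 4 to 5 in the mean of both lines, 16 to 17 and 11 to 12 between controls, and 0 lower and 6 to 10 higher for the difference of the responses. With the mean of all probe sets, 5 rose in TC32 and 7 in the mean of both lines. Signs turned there for CCNB2 (0.067 in TC32, 0.071 over both lines) and BIRC5 (0.146 in TC32). Without sets ending in _x_at or _s_at, which left 34 members, 15 fell in TC32 and 4 were higher for the difference. Signs then turned for CDC25C (0.001 in TC32, -0.045 for the difference), BUB3 (0.129 in TC32, 0.063 over both lines), MAD2L1 (-0.178 and -0.139) and BIRC5 (0.567 in TC32). The sets then read had means of 3.66 for CDC25C and 4.46 for BUB3, against 10.17 for MAD2L1 and 9.03 for BIRC5. Testing only genes whose mean was 6 or more gave 14 higher for the difference. Centred on housekeeping genes, 25 fell and 1 rose in TC71, 1 rose in TC32, 2 rose over both lines, and 10 were lower and 20 higher between controls. Centred on hybridization controls, 5 fell in TC71, 0 rose in TC32, 2 rose over both lines and 15 were higher for the difference, where the median of all genes was 0.218. With the beta-actin covariate, 2 rose in TC71, 2 rose over both lines and 5 were higher for the difference, and the TC71 calls of SPAG5, TTK, KIF18A, INCENP, ECT2 and ANLN were lost (adjusted p of 0.101, 0.156, 0.129, 0.0598, 0.108 and 0.175).

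The replicate block gave 5 members higher for the difference, 14 lower in TC71 and 22 lower in TC32. Same-numbered arrays of a line deviated together with correlations of -0.071, -0.019 and -0.012 in TC71 and 0.082, 0.236 and 0.04 in TC32. Not every array correlated best with its own number. With 3 arrays per group these correlations cannot decide whether the numbers pair the samples, and the labels do not state it. The block could not be fitted for the controls of the lines. Refits on the 6 arrays of a line ended the calls of DLGAP5 in TC71 and of CDC25C, NUF2, ANLN, CDC20, UBE2C and TOP2A in TC32 (adjusted p of 0.0562 to 0.126). Refits on 6 arrays or after a second quantile normalization kept the counts within 1.5 times of those reported. The limits are 3 arrays per group, relative values, and no detection calls.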
